A study of Homo sapiens with 16 samples.

Results

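The genes described here are the 7 that encode inhibitors of the cyclin-dependent kinases (CDKs): CDKN1A, CDKN1B, CDKN1C, CDKN2A, CDKN2B, CDKN2C and CDKN2D. They were picked by symbol from a table of 30813 genes, and each symbol matched 1 row. RNA sequencing had been run on 2 human melanoma lines made resistant to inhibitors of the MAPK pathway, DR A375 and 451Lu BR. They are named A375 and 451Lu from here on. A375 was sampled on dabrafenib (0.5 µM) with trametinib (0.05 µM), and 6, 24 and 48 h after both drugs were replaced with DMSO. 451Lu was sampled on dabrafenib (1 µM), and 24, 72 and 120 h after it was replaced with DMSO. Dabrafenib blocks the kinase BRAF and trametinib blocks MEK, the kinase that BRAF activates. The source name of the 451Lu samples mentions resistance to both drugs, while their treatment notes name dabrafenib alone. Each of the 8 groups had 2 libraries, so there were 16 in all. On-drug cells were taken at 1 time per line, so days in culture and days off drug cannot be told apart, and in every comparison between lines the line and its drugs cannot be told apart either. Neither derivative is described as 1 clone or as a pool, and no label says whether the 2 libraries of a group were separate cultures, and the p-values cover the spread among these libraries alone, which may be technical.

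CDK inhibitors are small proteins that hold back the division cycle. The CIP/KIP family, which comprises CDKN1A (p21), CDKN1B (p27) and CDKN1C (p57), binds complexes of a cyclin with its kinase, CDK2 complexes above all. The INK4 family, which comprises CDKN2A (p16), CDKN2B (p15), CDKN2C (p18) and CDKN2D (p19), binds CDK4 and CDK6 and keeps them from pairing with D-type cyclins. CDKN2A also encodes ARF, a growth-restraining protein read in another frame, and CDKN2A with its neighbour CDKN2B is often lost or silenced in melanoma. RNA levels say nothing of how these proteins are stabilised, destroyed or moved in the cell, which is a large part of how p21 and p27 are controlled.

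Levels are counts scaled to library size (CPM), on 1 scale over the 16 libraries, with sizes corrected by TMM. Fold changes are fitted log2 values ± SE from edgeR's quasi-likelihood test, and each p was adjusted by Benjamini-Hochberg over every gene in the fit, with a threshold of 0.05. Total counts ran from 10863255 to 16691725 per library in A375 and from 9714190 to 16447548 in 451Lu. The coefficient of variation that edgeR estimated between libraries of a group, beyond counting error, was 3.19% (A375) or 4.98% (451Lu). Because the strand setting of the counting is not given in the sources used here, reads of a gene and of another on its opposite strand may be mixed. Of the 7, CDKN2A and CDKN2B overlap the antisense transcript CDKN2B-AS1, which had 0 to 11 counts per library, and CDKN1B spans RP11-180M15.7 on its own strand, which strand would not separate, with 3 to 21 counts. In bulk RNA, fewer cells with a transcript and less of it per cell cannot be told apart.

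On GRCh38, CDKN1A lies on chromosome 6 at 36676460 to 36687339, CDKN1B on chromosome 12 at 12715058 to 12722371 and CDKN1C on chromosome 11 at 2883213 to 2885881. CDKN2A (21967753 to 21995301) and CDKN2B (22002903 to 22009363) are neighbours on chromosome 9, CDKN2C lies on chromosome 1 at 50960745 to 50974633 and CDKN2D on chromosome 19 at 10566462 to 10569059. The promoters of CDKN1A, CDKN2A and CDKN2B are printed because these 3 genes had the largest rises among those measured well above the detection limit. Each window holds 250 bases before a RefSeq transcription start and 50 after it (GRCh38.p14), 5′ to 3′ on the gene's strand, and capitals mark GC boxes (GGGCGG, or CCGCCC on the other strand), the recognition sequence of factors such as SP1. The CDKN2A windows are those of its pair of starts. By background knowledge the start at the higher coordinates gives ARF and the other gives p16.
CDKN1A, chr6:36678464-36678763, plus strand: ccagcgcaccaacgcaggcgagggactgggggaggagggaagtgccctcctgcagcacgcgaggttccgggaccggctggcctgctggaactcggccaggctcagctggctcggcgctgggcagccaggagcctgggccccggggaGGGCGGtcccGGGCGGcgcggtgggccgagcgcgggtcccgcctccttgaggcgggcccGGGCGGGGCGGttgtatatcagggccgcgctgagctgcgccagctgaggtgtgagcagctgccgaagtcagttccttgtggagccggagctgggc
CDKN2A, chr9:21974808-21975107, minus strand: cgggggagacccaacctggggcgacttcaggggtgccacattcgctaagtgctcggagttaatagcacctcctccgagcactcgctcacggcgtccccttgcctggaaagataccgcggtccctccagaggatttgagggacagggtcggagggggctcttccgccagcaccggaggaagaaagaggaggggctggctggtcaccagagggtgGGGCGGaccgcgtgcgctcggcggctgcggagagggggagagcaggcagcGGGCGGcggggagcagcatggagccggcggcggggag
CDKN2A, chr9:21995275-21995574, minus strand: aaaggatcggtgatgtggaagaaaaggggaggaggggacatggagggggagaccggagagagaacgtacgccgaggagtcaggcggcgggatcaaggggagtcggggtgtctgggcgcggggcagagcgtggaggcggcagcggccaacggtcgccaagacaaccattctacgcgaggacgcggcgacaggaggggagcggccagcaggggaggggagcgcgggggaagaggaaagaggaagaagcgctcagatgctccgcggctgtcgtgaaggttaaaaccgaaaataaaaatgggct
CDKN2B, chr9:22009256-22009555, minus strand: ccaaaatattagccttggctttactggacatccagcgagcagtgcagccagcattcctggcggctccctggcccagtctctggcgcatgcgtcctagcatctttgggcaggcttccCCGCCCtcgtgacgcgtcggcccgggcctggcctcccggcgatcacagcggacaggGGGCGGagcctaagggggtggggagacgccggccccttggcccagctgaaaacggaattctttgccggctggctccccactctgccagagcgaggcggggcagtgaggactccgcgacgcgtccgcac

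The CDKN1A window held 4 GC boxes, of which 2 overlap, and the CDKN2B window held 2. The window at the lower-coordinate start of CDKN2A held 2 and the window at its other start held 0. A GC box was found in 44.95% of 35116 RefSeq promoter windows of the same length, on either strand. RefSeq windows were given for 6 of the 7 genes, 9 windows in all. CDKN1B had 1 GC box, CDKN2D had 3, and the 3 windows of CDKN2C had 0, 6 and 1. The AP-1 letters TGANTCA, found in 7.71% of all windows, and the TATA letters TATAAA, found in 11.5%, were in none of the 9. The E box CACGTG, read by MYC and MITF and found in 7.26% of all windows, was in 2 of the 3 CDKN2C windows. CCAAT, in 34.6% of all windows, had 3 matches in CDKN1B and 1 each in CDKN2C and CDKN2D, and the E2F letters TTTNNCGC, in 6.89% of all windows, had 1 in CDKN2D. Both strands were searched for every motif. A match is a run of letters and not a bound site.

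Among the CIP/KIP genes, CDKN1A, which answers to MAPK and TGF-beta signals among others, was higher at every time off drug in both lines, from very different starting levels. In A375 it had 147 and 151 CPM on drug, 563 and 526 at 6 h, 446 and 428 at 24 h, and 416 and 428 at 48 h. In 451Lu it had 3.06 and 2.49 CPM on drug, 143 and 121 at 24 h, 349 and 320 at 72 h, and 643 and 536 at 120 h. Every off-drug library stood above every on-drug library of its line, A375 was highest at its first time off drug and 451Lu at its last. The change in A375 was 1.83 ± 0.047 at 6 h (3.55-fold, adjusted p = 1.88e-27), 1.51 ± 0.047 at 24 h and 1.46 ± 0.047 at 48 h. In 451Lu it was 5.61 ± 0.15 at 24 h (48.7-fold, adjusted p = 2.90e-14), 6.92 ± 0.14 at 72 h (121-fold) and 7.72 ± 0.14 at 120 h (211-fold, adjusted p = 1.09e-16). By the size of the fitted change CDKN1A stood 80th of 13851 genes in 451Lu at 24 h and 142nd at 120 h, against 1154th of 14449 in A375 at 6 h.

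After its first time off drug CDKN1A fell in A375 and rose in 451Lu, but over unlike intervals. The step from 6 to 24 h was sampled in A375 alone. In A375, 24 h was 0.32 ± 0.044 log2 units below 6 h (log2 change -0.32, adjusted p = 1.05e-07), and 48 h against 24 h did not pass (-0.048 ± 0.044, adjusted p = 0.460). In 451Lu, 72 h was above 24 h by 1.31 ± 0.089 (adjusted p = 5.66e-09) and 120 h was above 72 h by 0.80 ± 0.085 (adjusted p = 3.24e-06). The order of its levels over the 8 groups ran from 451Lu at 120 h and A375 at 6 h, whose libraries overlapped, through A375 at 24 and 48 h, which also overlapped, to 451Lu at 72 h, A375 on drug, 451Lu at 24 h and 451Lu on drug, each apart from its neighbours.

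CDKN1B, the p27 gene, which is induced by FOXO factors in many cell types, was higher in 451Lu than in A375 and moved little beside CDKN1A. In A375 it had 40.1 and 37.3 CPM on drug, 21.8 and 22.2 at 6 h, 39.6 and 35.8 at 24 h, and 33.9 and 34.7 at 48 h. In 451Lu it had 92.0 and 91.0 CPM on drug, 89.7 and 100.3 at 24 h, 70.8 and 76.0 at 72 h, and 72.7 and 69.9 at 120 h. The lowest group was A375 at 6 h, and no library of A375 reached the lowest of 451Lu. In A375 it fell at 6 h by 0.86 ± 0.082 (log2 change -0.86, adjusted p = 2.24e-11), rose between 6 and 24 h by 0.79 ± 0.084 (adjusted p = 3.23e-10), and at 24 h against on drug was at -0.068 ± 0.070 (adjusted p = 0.391; -0.30, adjusted p = 0.000274, with library totals alone and -0.21, adjusted p = 0.00863, with upper-quartile scaling). At 48 h it was at -0.21 ± 0.075 (adjusted p = 0.0129), a call that DESeq2 did not make (adjusted p = 0.127) and that was lost without on-drug replicate 1 (adjusted p = 0.171), without 48 h replicate 1 (adjusted p = 0.0721) or in the joint fit of both lines (adjusted p = 0.0506). In 451Lu it was at 0.081 ± 0.066 at 24 h (adjusted p = 0.320), then fell, with log2 changes of -0.31 ± 0.070 at 72 h (adjusted p = 0.000840) and -0.37 ± 0.069 at 120 h (adjusted p = 0.000126).

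CDKN1C, an imprinted gene whose p57 protein acts in differentiating tissues, was near the limit of detection. In A375 its 2 libraries had 0 and 0 counts on drug, 0 and 2 at 6 h, 10 and 12 at 24 h, and 19 and 12 at 48 h. In 451Lu they had 2 and 2 counts on drug, 2 and 8 at 24 h, 12 and 16 at 72 h, and 11 and 4 at 120 h. The highest level was 1.67 CPM, in A375 at 48 h, and the last 2 times of each line did not overlap its on-drug group, whereas A375 at 6 h did. Against a floor of 3 counts summed over both on-drug libraries, A375 was at least 8.59-fold higher at 24 h (adjusted p = 1.45e-05) and at least 15.2-fold higher at 48 h (adjusted p = 2.36e-07). These bounds take the off-drug counts as measured, without their own counting error. In 451Lu the ratio to on drug was 11.8 at 72 h (95% counting interval 4.13 to 46.3, adjusted p = 0.000277) and 5.43 at 120 h (1.73 to 22.5, adjusted p = 0.0142). The 120 h call was lost without on-drug replicate 1 (adjusted p = 0.0584), without on-drug replicate 2 (adjusted p = 0.0855) or without 120 h replicate 1 (adjusted p = 0.256), and the 24 h ratio of 3.12 (0.900 to 13.6) did not pass (adjusted p = 0.135; 0.0374 without 24 h replicate 1).

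**Figure D1:**
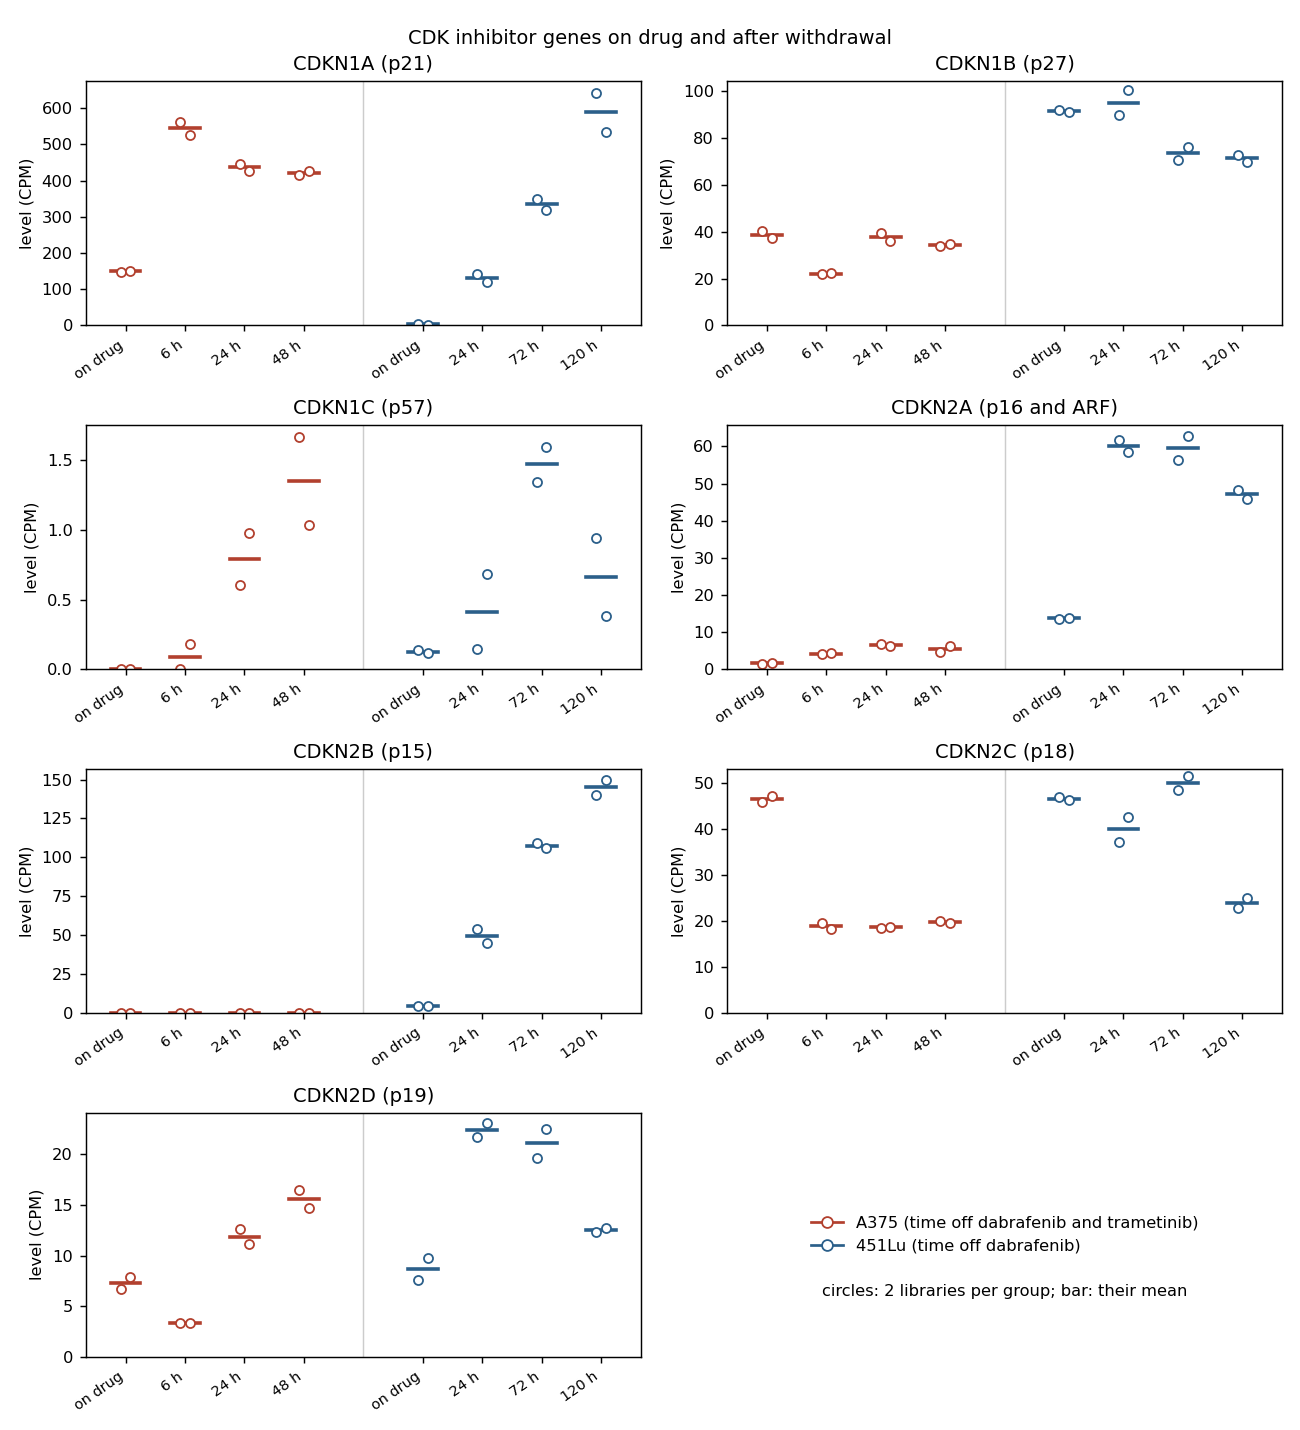
Level in CPM (linear axes that start at 0) of each of the 7 genes in the 4 groups of A375 (red) and of 451Lu (blue). Circles are the 2 libraries of a group and bars their mean; CDKN1A reached 643 CPM in 451Lu at 120 h, against 3.06 and 2.49 CPM on drug, while CDKN2B stayed at 0 or 1 count in all A375 libraries.

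Of the INK4 genes, the adjacent CDKN2A and CDKN2B were higher off drug in 451Lu, and CDKN2A alone of the pair was measurable in A375. CDKN2A in A375 had 1.55 and 1.66 CPM on drug (28 and 26 counts), 4.09 and 4.29 at 6 h, 6.93 and 6.22 at 24 h, and 4.75 and 6.21 at 48 h. In 451Lu it had 13.6 and 13.8 CPM on drug, 61.8 and 58.6 at 24 h, 56.3 and 62.8 at 72 h, and 48.3 and 45.9 at 120 h. No off-drug library overlapped the on-drug libraries of its line, and the lowest library of 451Lu was above the highest of A375. The change in A375 was 1.34 ± 0.24 at 6 h, 2.01 ± 0.21 at 24 h (4.02-fold, adjusted p = 1.52e-10) and 1.74 ± 0.23 at 48 h. In 451Lu it was 2.16 ± 0.086 at 24 h (4.48-fold, adjusted p = 3.08e-12), 2.12 ± 0.089 at 72 h and 1.77 ± 0.089 at 120 h, and 120 h was below 72 h (-0.36 ± 0.079, adjusted p = 0.00258). The counts join the p16 and ARF transcripts, which start at the separate promoters printed above, so which of them moved was not measured.

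CDKN2B, which encodes p15 and is a known target of TGF-beta signals, had 4.42 and 4.29 CPM in 451Lu on drug, 54.2 and 44.8 at 24 h, 109 and 106 at 72 h, and 140.3 and 149 at 120 h. These 4 groups did not overlap and stood in the order of time. The change was 3.54 ± 0.12 at 24 h (11.6-fold, adjusted p = 4.95e-13), 4.62 ± 0.11 at 72 h (24.7-fold) and 5.04 ± 0.11 at 120 h (32.9-fold, adjusted p = 8.58e-16), with further rises of 1.08 ± 0.082 between 24 and 72 h and 0.41 ± 0.076 between 72 and 120 h. In A375, 6 of 8 libraries had 0 counts and 1 library each at 24 h and 48 h had 1 count, so no change could be tested there. On drug, CDKN2B was at least 49.0-fold lower in A375 than in 451Lu, taking 3 counts as the A375 floor and the 451Lu counts as measured.

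The other genes of this stretch of chromosome 9 were read beside the pair. Of 6 listed neighbours 4 were tested, and 3 of the 4 were higher and 0 lower at the last time in each line. Over all genes 72.6% were called in A375 (36.6% as higher) and 73.8% in 451Lu (37.3% as higher). The number called is thus near the background, and the direction of so few genes was not read as particular to this stretch. MTAP, a methionine salvage gene next to CDKN2A that is often lost with it in tumours, averaged 74.2 CPM on drug, 210.5 at 6 h, 256 at 24 h and 263 at 48 h in A375. That was a change of 1.79 ± 0.053 at 48 h. In 451Lu it averaged 63.1 CPM on drug and 78.3 at 120 h, a change of 0.29 ± 0.064 (adjusted p = 0.000564). DMRTA1, on the far side of CDKN2B, rose by 1.61 ± 0.13 in A375 at 48 h and by 3.65 ± 0.33 in 451Lu at 120 h. RNA from MTAP and DMRTA1 was thus read on either side of CDKN2B in A375, where CDKN2B itself had at most 1 count per library. Gene copy number was not measured, and the cause of the low CDKN2B counts was not tested.

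CDKN2C, the p18 gene, fell in A375 at once and in 451Lu late. In A375 it had 46.0 and 47.1 CPM on drug, 19.6 and 18.2 at 6 h, 18.5 and 18.8 at 24 h, and 20.1 and 19.7 at 48 h. In 451Lu it had 47.0 and 46.3 CPM on drug, 37.3 and 42.7 at 24 h, 48.5 and 51.5 at 72 h, and 23.0 and 24.99 at 120 h. The on-drug levels of the lines overlapped, all off-drug libraries of A375 lay far below them, and in 451Lu the 120 h libraries lay far below the other groups. In A375 the log2 changes were -1.33 ± 0.080 at 6 h (adjusted p = 1.08e-16), -1.35 ± 0.076 at 24 h and -1.26 ± 0.079 at 48 h, and neither step between these times passed. In 451Lu the change at 24 h was -0.20 ± 0.082 and just missed the threshold (adjusted p = 0.0528), with adjusted p-values of 0.00816 to 0.0410 under 10 of 17 other settings. At 72 h it was 0.10 ± 0.083 (adjusted p = 0.277), and at 120 h it was -0.98 ± 0.090 (adjusted p = 4.64e-08), which was -1.08 ± 0.093 against 72 h (adjusted p = 3.56e-07).

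CDKN2D, the p19 gene, went below and then above its on-drug level in A375. It had 6.68 and 7.87 CPM on drug, 3.32 and 3.40 at 6 h, 12.7 and 11.1 at 24 h, and 16.5 and 14.7 at 48 h in A375. In 451Lu it had 7.62 and 9.80 CPM on drug, 21.8 and 23.1 at 24 h, 19.7 and 22.5 at 72 h, and 12.3 and 12.7 at 120 h. None of the off-drug groups overlapped the on-drug group of its line, with A375 at 6 h the only group below. The log2 changes in A375 were -1.14 ± 0.18 at 6 h (adjusted p = 1.17e-06), 0.69 ± 0.13 at 24 h (adjusted p = 1.35e-05) and 1.07 ± 0.13 at 48 h (adjusted p = 3.38e-09), and 24 h was above 6 h by 1.83 ± 0.17. In 451Lu they were 1.38 ± 0.13 at 24 h, 1.27 ± 0.13 at 72 h and 0.50 ± 0.14 at 120 h (adjusted p = 0.00459), and 120 h was below 72 h (-0.77 ± 0.13, adjusted p = 0.000335). The 120 h call was lost without on-drug replicate 1 (0.33, adjusted p = 0.0667) and when libraries were scaled by their totals alone (0.22, adjusted p = 0.177).

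**Figure D2:**
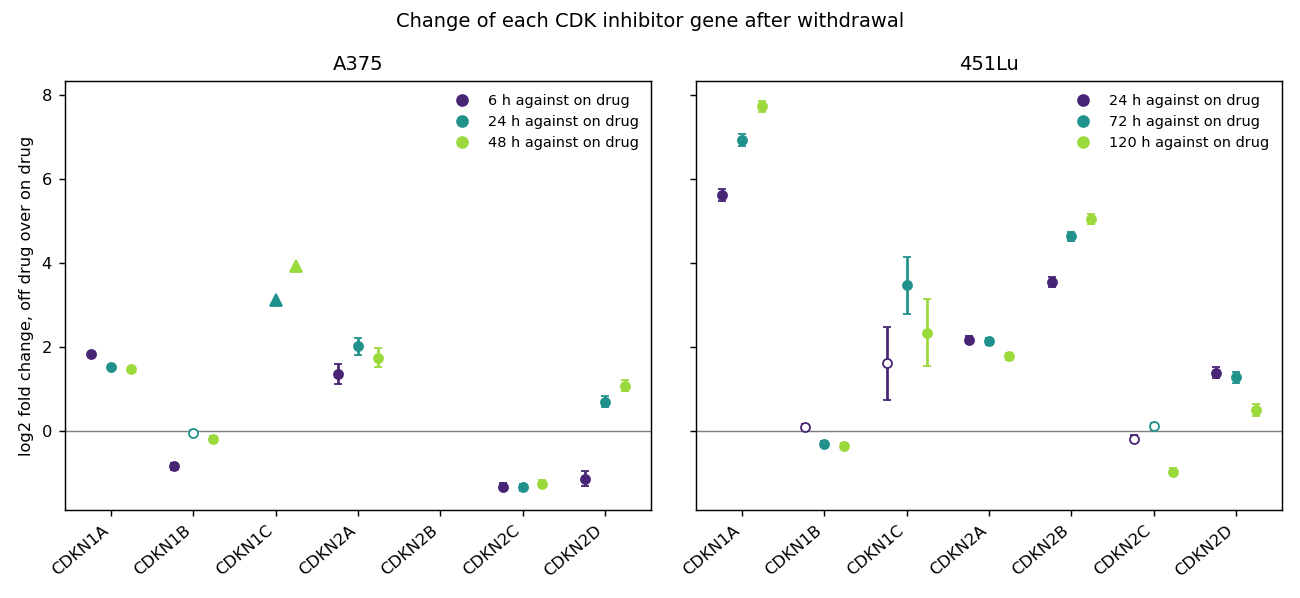
Log2 fold change ± SE of each gene off drug over on drug at the 3 times of A375 (left) and of 451Lu (right). Filled circles passed the adjusted p threshold of 0.05, open circles did not, and triangles are the lower bounds for CDKN1C in A375, where CDKN1C at 6 h and CDKN2B are left out; CDKN1A reached 7.72 in 451Lu and at most 1.83 in A375, and CDKN2C lay at -1.26 or lower at all 3 times in A375.

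Counted against on drug, 2 of the 6 genes tested in A375 were higher and 3 lower at 6 h, where 73.3% of all 14449 genes were called, 35.1% as higher and 38.1% as lower. At 24 h 4 were higher and 1 lower, where 72.6% of all genes were called, 36.2% as higher and 36.3% as lower. At 48 h 4 were higher and 2 lower, where 72.6% were called, 36.6% as higher and 36% as lower. In 451Lu, where all 7 were tested, 4 were higher and 0 lower at 24 h, where 54.1% of 13851 genes were called, 29.2% as higher and 24.9% as lower. At 72 h 5 were higher and 1 lower, where 67.7% were called, 34.2% as higher and 33.4% as lower. At 120 h 5 were higher and 2 lower, where 73.8% were called, 37.3% as higher and 36.6% as lower. Between times, 24 h against 6 h in A375 gave 4 higher and 1 lower, where 69.8% were called, 35.5% as higher and 34.2% as lower. CDKN2D alone was called, as higher, for 48 h against 24 h in A375, where 29.9% were called, 14.2% as higher and 15.7% as lower; the call was lost in DESeq2 (adjusted p = 0.150), without 24 h replicate 2 (adjusted p = 0.113) and without 48 h replicate 1 (adjusted p = 0.125). In 451Lu, 72 h against 24 h gave 4 higher and 1 lower, where 51.4% were called, 25.9% as higher and 25.5% as lower. Finally, 120 h against 72 h gave 2 higher and 3 lower, where 32.7% were called, 16.6% as higher and 16.1% as lower. Most genes of the table were called in the comparisons with on drug, so a share of called members near these percentages says nothing particular about the family, and the sizes of the changes are the measurement here. In A375 the median change was -0.86 at 6 h over the 5 genes without CDKN1C. It was 0.24 over 6 genes with the fitted CDKN1C value, which rests on 0 counts on drug and 2 at 6 h. The sign of the 6 h median thus depends on that gene. At 24 h and 48 h the median was 1.10 and 1.27 over 6 genes, with CDKN1C at its bound. In 451Lu it was 1.60, 2.12 and 1.77 at the 3 times. The median of all genes lay between -0.062 and 0.030.

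To compare levels between genes, CPM were divided by the length of each gene's exons in kilobases. The sum over the 7 genes in A375 was 81.3 and 82.7 CPM per kb on drug, 201 and 189 at 6 h, 176 and 168 at 24 h, and 167 and 170.2 at 48 h. In 451Lu the sum was 57.2 and 58.0 CPM per kb on drug, 132 and 128 at 24 h, 208 and 204 at 72 h, and 298 and 264 at 120 h. The summed level was thus higher off drug in every library of both lines, and in 451Lu its 4 groups stood apart in the order of time. CDKN1A made up 59.8% ± 0.36 of the sum in A375 on drug, 91.4% ± 0.35 at 6 h, 83.3% ± 0.36 at 24 h and 82.0% ± 0.59 at 48 h (SD, n = 2 each). In 451Lu it made up 1.58% ± 0.24 on drug, 33.2% ± 3.27 at 24 h, 53.3% ± 2.52 at 72 h and 68.6% ± 3.01 at 120 h (SD, n = 2 each).

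The leading inhibitor transcript of 451Lu was therefore CDKN1B on drug, with 56.5% ± 0.95 of the sum, and CDKN1A from 24 h on. The share of CDKN1B at 120 h was 9.05% ± 0.51 (SD, n = 2 each), although its own level was 25.4 CPM per kb there and 32.5 on drug. The INK4 genes together summed to 19.2 CPM per kb in A375 on drug, 8.91 at 6 h, 15.1 at 24 h and 17.6 at 48 h, the on-drug level being the highest. In 451Lu they summed to 24.1 CPM per kb on drug, 53.1 at 24 h, 69.3 at 72 h and 62.2 at 120 h. Their share in 451Lu was 41.8% on drug, 40.7% at 24 h, 33.7% at 72 h and 22.2% at 120 h. Within INK4, CDKN2C was the highest gene on drug in both lines (14.03 CPM per kb in A375 and 14.1 in 451Lu), CDKN2D was the highest off drug in A375 from 24 h (7.91 CPM per kb at 24 h and 10.4 at 48 h), and CDKN2B was the highest in 451Lu from 72 h (26.5 CPM per kb at 72 h and 35.7 at 120 h). Of 56 such shares, 37 differed by more than their SD when CPM without the division by length were used, so the shares depend on the exon lengths taken. In plain CPM the order of CDKN2C and CDKN2D in A375 at these times turned round, with CDKN2C at 18.7 and CDKN2D at 11.9 CPM at 24 h, and 19.9 and 15.6 CPM at 48 h.

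**Figure D3:**
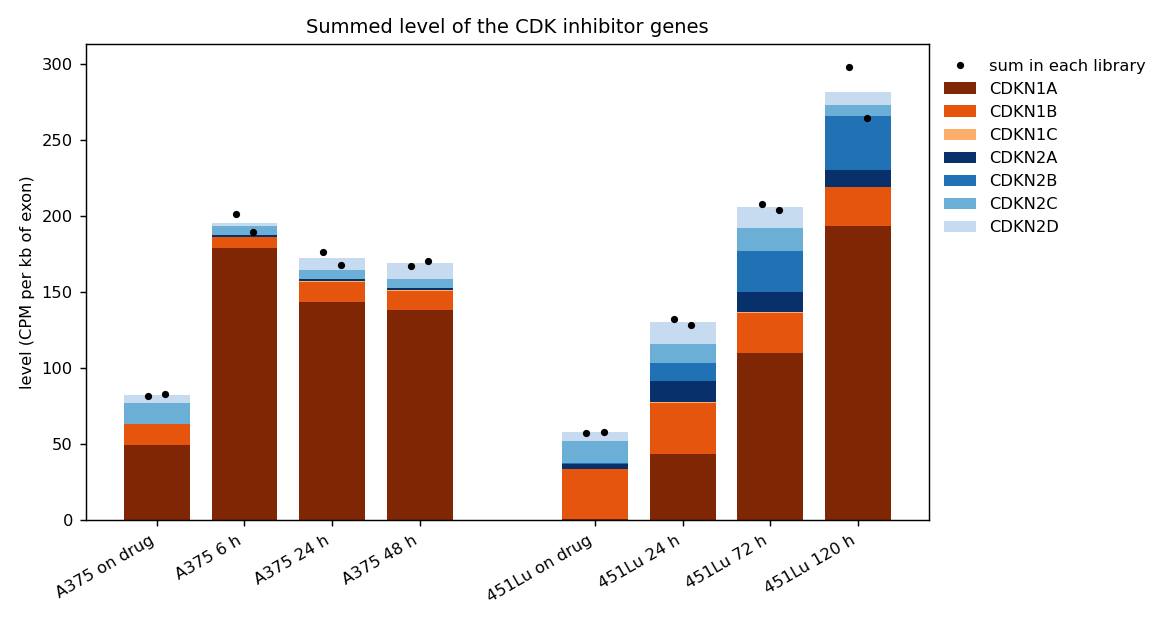
Summed level of the 7 genes in CPM per kb of exon, stacked by gene, as the mean of each group; dots are the sums of the 2 libraries. CIP/KIP genes are in oranges and INK4 genes in blues: A375 is mostly CDKN1A in all 4 groups, while 451Lu is mostly CDKN1B and CDKN2C on drug and gains CDKN1A and CDKN2B up to a sum of 281 CPM per kb at 120 h.

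The time that the lines share is 24 h, and the difference between their changes was tested directly in a fit of all 16 libraries. Signed as A375 minus 451Lu, the difference passed for 4 of the 7 genes, above 0 for 1 and below 0 for 3, where 49.4% of 15481 genes were called, 27.4% above 0 and 22% below 0. For CDKN1A the change in A375 minus that in 451Lu was -4.03 ± 0.17 (adjusted p = 1.95e-16). For CDKN2C it was -1.09 ± 0.11 (adjusted p = 5.99e-09), the fall being larger in A375. For CDKN2D it was -0.63 ± 0.18 (adjusted p = 0.00592), and the call was lost without A375 on-drug replicate 2 (adjusted p = 0.0537) or 451Lu on-drug replicate 1 (adjusted p = 0.0517). For CDKN1C it was 4.75 ± 1.93 (adjusted p = 0.0439), a fitted value that rests on 0 counts in A375 on drug and lost its call under 9 of 23 other settings, with adjusted p up to 0.134. The test did not pass for CDKN2A (-0.093 ± 0.24, adjusted p = 0.816), CDKN1B (-0.085 ± 0.097, adjusted p = 0.511; -0.29 with library totals alone, adjusted p = 0.0171) or CDKN2B (-1.31 ± 3.06, adjusted p = 0.780), the last of which had 1 count in A375 at 24 h and 0 on drug.

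On drug, 1 of the 7 genes was higher in A375 than in 451Lu and 3 were lower, where 77.2% of genes were called, 37.9% as higher and 39.3% as lower. CDKN1A was 54.0-fold higher in A375 (log2 difference 5.76 ± 0.13, adjusted p = 3.58e-23). CDKN1B was 2.36-fold lower in A375 (-1.24 ± 0.067), CDKN2A was 8.52-fold lower (-3.09 ± 0.16, adjusted p = 1.71e-15), and CDKN2B was lower by the bound given above. CDKN2D was at -0.28 ± 0.14 (adjusted p = 0.0754), and it passed without A375 on-drug replicate 2 (adjusted p = 0.0431) or 451Lu on-drug replicate 1 (adjusted p = 0.0134). CDKN1C had 0 counts in A375 and 4 in 451Lu on drug (adjusted p = 0.0605; 0.0446 with no filter on low counts and 0.0499 without 451Lu 24 h replicate 1). CDKN2C was at -0.0032 ± 0.070 (adjusted p = 0.975). With libraries scaled by their totals alone, the CDKN2C difference was 0.20 (adjusted p = 0.0142) while the median of all genes was 0.18, so its place relative to the other genes hardly moved.

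The kinases and cyclins that these proteins bind were read next. In A375 at 48 h, 7 of 12 tested were higher and 4 lower, and in 451Lu at 120 h 4 of 12 were higher and 7 lower. Over all genes 72.6% were called at 48 h in A375 and 73.8% at 120 h in 451Lu, the background for this and each list that follows, and no list's count is read as particular to it. CCND1, the D-type cyclin that activates CDK4 and CDK6, averaged 373 CPM at 48 h in A375 and 29.4 on drug (3.63 ± 0.056). In 451Lu it averaged 6410 CPM at 120 h and 536 on drug (3.57 ± 0.061). CDK4 fell in both lines (-0.60 ± 0.051 in A375 at 48 h and -1.67 ± 0.071 in 451Lu at 120 h), while CDK6 fell in A375 at 48 h (-0.35 ± 0.055), after a rise of 1.13 ± 0.052 at 6 h, and rose in 451Lu at 120 h (1.33 ± 0.088). CDK1, the mitotic kinase, averaged 1.22 CPM in 451Lu at 120 h and 94.5 on drug (-6.27 ± 0.20), against a rise of 0.67 ± 0.049 in A375 at 48 h. The largest fall among these genes in A375 was that of CCND2 (-0.98 ± 0.37, adjusted p = 0.0184), at 0.827 CPM at 48 h and 1.59 on drug. CCNA1 had 28 counts over both 451Lu libraries at 120 h and 0 on drug. CDK4 overlaps TSPAN31 and CCND1 overlaps ORAOV1, both on the other strand.

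CDK2, the main CIP/KIP partner, had 75.8 CPM at 120 h in 451Lu and 502 on drug (-2.74 ± 0.10), and 257 CPM at 48 h in A375 and 136 on drug (0.89 ± 0.048). CDK2 overlaps the pigment gene PMEL, which lies on the other strand and averaged 423 CPM at 120 h in 451Lu and 9251 on drug, so some of the CDK2 counts in 451Lu may be PMEL reads. Their part in the result was not tested.

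All 20 listed proliferation markers were lower in 451Lu at 72 h (median -2.09) and at 120 h (median -4.00), where 33.4% and 36.6% of all genes were called as lower. CDKN1A and CDKN2B were highest at 120 h, whereas CDKN2A, CDKN2C and CDKN2D were lower at 120 h than at 72 h. In 451Lu at 24 h, 54.1% of all genes were called, 29.2% as higher and 24.9% as lower. Of the 20 markers, 4 were higher and 10 lower then (median -0.26), and CDKN1A was 48.7-fold higher at the same time. Their summed level was 5006 to 5128 CPM on drug, 4616 to 4845 at 24 h, 1328 to 1546 at 72 h and 549 to 553 at 120 h. MKI67, the standard marker of cycling cells, averaged 3.73 CPM at 120 h and 453 on drug (-6.94 ± 0.11, adjusted p = 3.47e-17). Of all genes in A375, 73.3% were called at 6 h (35.1% as higher and 38.1% as lower), and 72.6% at 24 h and at 48 h. Of the 20 markers in A375, 3 were higher and 17 lower at 6 h (median -0.59). At 24 h 8 were higher and 10 lower (median -0.10), and at 48 h 9 higher and 10 lower (median -0.041). The extremes at 48 h were AURKB at 0.85 ± 0.082 and FOXM1 at -0.96 ± 0.061. The summed level of the 20 in A375 was 3585 to 3607 CPM on drug, 2446 to 2470 at 6 h, 3390 to 3425 at 24 h and 3563 to 3623 at 48 h. The dip at 6 h fell in the group where CDKN1A was highest and CDKN1B and CDKN2D were lowest in A375. How far each inhibitor's level moves with the share of cycling cells was not tested.

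**Figure D4:**
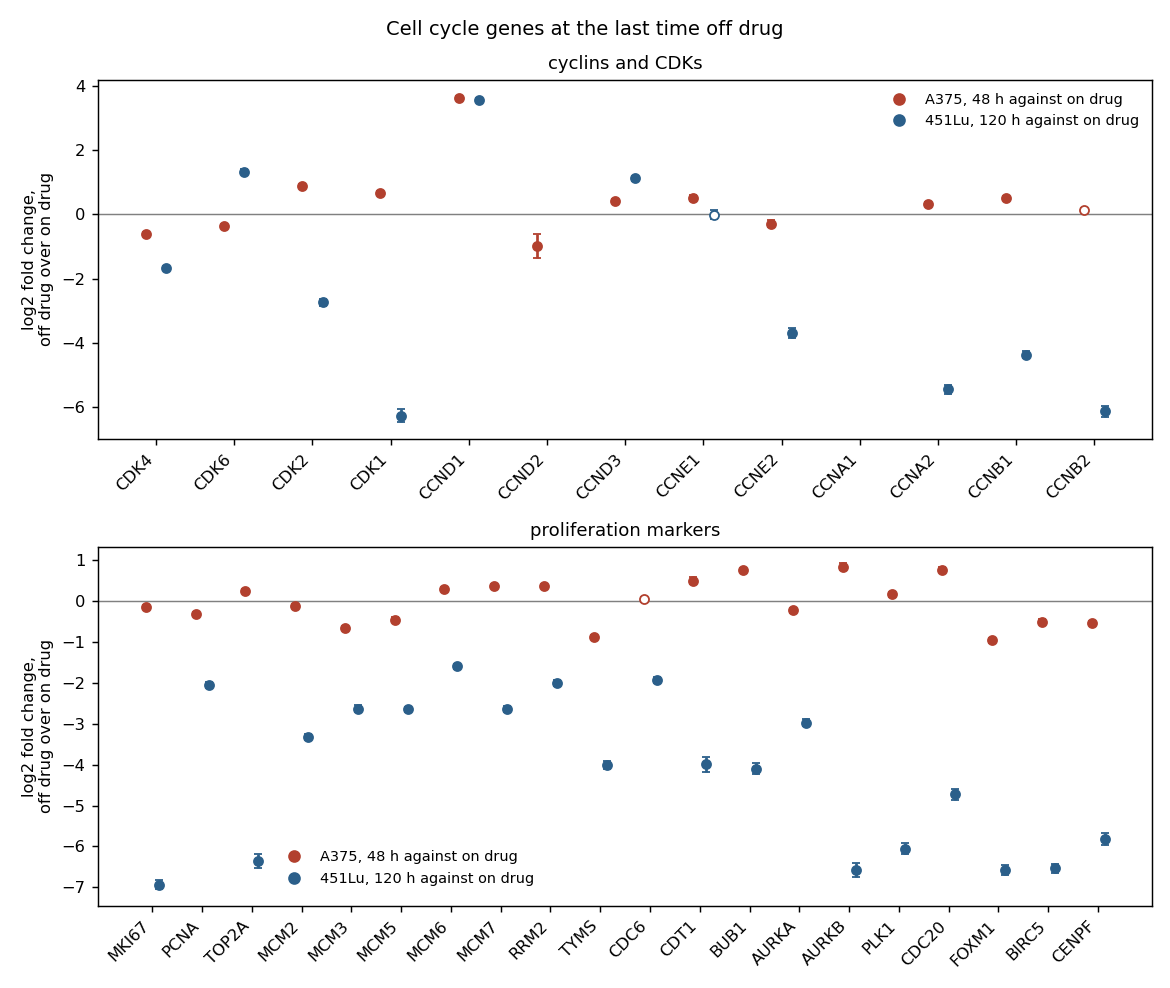
Log2 fold change ± SE, off drug over on drug, of the listed cyclins and CDKs (top) and of 20 proliferation markers (bottom) at the last time of each line, A375 at 48 h (red) and 451Lu at 120 h (blue). Filled circles passed the adjusted p threshold of 0.05, and genes at 0 counts on drug or not tested are left out; all 20 proliferation markers lay below 0 in 451Lu and between -0.96 and 0.85 in A375.

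Further down the same pathway, CDK inhibition keeps the pocket proteins bound to E2F factors. Of 13 pocket protein and E2F genes, 1 was higher and 7 lower in A375 at 48 h, and 4 were higher and 7 lower in 451Lu at 120 h (72.6% and 73.8% of all genes called). RB1, the founding pocket protein, was the 1 that rose in A375 (0.58 ± 0.054) and rose alike in 451Lu (0.58 ± 0.075). It overlaps LPAR6 on the other strand, which had 17 to 1892 counts per library, against 758 to 1964 for RB1. Some of the RB1 counts may therefore be LPAR6 reads, and their part in the rise was not tested. The largest movers in 451Lu were E2F2, an activator of S-phase genes (-6.64 ± 0.24), and E2F7, a repressor (1.69 ± 0.064). In A375 the largest fall was that of TFDP2, an E2F partner (-1.55 ± 0.23). Of 11 other brakes on the cycle tested, 5 were higher and 4 lower in A375 at 48 h, led by GADD45B (2.42 ± 0.19) and CABLES1 (-3.22 ± 0.087), and 2 were higher and 8 lower in 451Lu at 120 h, beside the same shares of all genes. There BTG1 rose by 1.21 ± 0.062, and CDKN3, a CDK-binding phosphatase expressed in cycling cells, had a change of -6.73 ± 0.22.

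Of 22 transcriptional regulators of the inhibitors, 10 were higher and 10 lower in A375 at 48 h, and 12 were higher and 6 lower in 451Lu at 120 h (72.6% and 73.8% of all genes called). MYC, a repressor of CDKN1A and CDKN2B, rose in A375 (1.75 ± 0.055) and fell in 451Lu (-1.34 ± 0.066), and at 24 h the difference between the lines was 2.33 ± 0.089 (adjusted p = 3.87e-17). TGFB1, whose product induces CDKN2B in epithelial cells, had the largest rise of the list in 451Lu. It had 33.4 CPM at 120 h and 1.59 on drug (4.36 ± 0.17). EZH2, the Polycomb methyltransferase that silences CDKN2A, fell most there (-2.68 ± 0.10). TGFB1 was 13.5-fold higher in A375 than in 451Lu on drug (log2 difference 3.75 ± 0.17). It rose by 1.82 ± 0.076 in A375 at 24 h, while CDKN2B was not measurable in that line. The relation of TGFB1 to CDKN2B was not tested. In A375 the extremes were the AP-1 subunit JUNB (3.21 ± 0.075) and the melanocyte factor MITF (-3.21 ± 0.061). TGFB1 overlaps HNRNPUL1 and JUNB overlaps HOOK2, each on the other strand.

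Of 11 genes of the ubiquitin ligases that destroy p21 and p27, 5 were higher and 3 lower in A375 at 48 h, and 3 were higher and 7 lower in 451Lu at 120 h, where 72.6% and 73.8% of all genes were called. SKP2, the subunit that recognises p27, fell in both lines (-0.68 ± 0.072 in A375 and -3.10 ± 0.12 in 451Lu). Its partner CKS1B rose in A375 (0.89 ± 0.054) and fell in 451Lu (-3.15 ± 0.11). DTL, the subunit that brings p21 to its ligase, had the largest fall in 451Lu (-4.75 ± 0.11), and the largest rise there was RNF123 (0.33 ± 0.090, adjusted p = 0.00364).

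The labels call both lines by melanoma line names, and melanocyte markers were read in every library but fell off drug. Their summed level over 8 genes was 5039 to 5160 CPM in A375 on drug and 974 to 1066 at 48 h, and 11242 to 11824 CPM in 451Lu on drug and 1013 to 1146 at 120 h. All 8 were lower in A375 at 48 h, TYRP1 most (-5.79 ± 0.38), and 7 of 8 in 451Lu at 120 h, where DCT had a change of -9.19 ± 0.24 and TYRP1 had 0 counts. Immune markers summed to at most 2.87 CPM in any library, and PTPRC had 0 counts in all 451Lu groups and 0.174 CPM in A375 at 48 h and 2.40 on drug. Of the endothelial markers, PECAM1 averaged 118 CPM in 451Lu at 120 h and had 0 counts on drug, while VWF stayed at or below 1.01 CPM in the group means of both lines. Fibroblast markers summed to 4.65 to 5.28 CPM at 48 h and 21.7 to 22.1 on drug in A375, and to 52.3 to 61.7 CPM at 120 h and 139 to 153 on drug in 451Lu, with LUM lower in both lines (-3.03 ± 0.16 and -4.60 ± 0.11), COL1A1 higher in both (1.80 ± 0.41 and 4.61 ± 0.43) and PDGFRB higher in 451Lu (6.90 ± 0.24). Of the fibroblast markers tested, 1 of 3 was higher and 1 lower in A375, and 3 of 4 were higher and 1 lower in 451Lu, where DCN had 94 counts at 120 h and 3 on drug and LUM made up most of the on-drug sum. Of the epithelial markers KRT18 rose in both lines (1.40 ± 0.083 in A375 at 48 h and 1.35 ± 0.080 in 451Lu at 120 h), EPCAM had 0 or 1 count per group and CDH1 had 0 counts in 451Lu at 120 h and 347 on drug. The listed markers KRT5, KRT14, CD3E and CDH5 were not used here. The part of any such shift in the inhibitor levels was not tested.

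The genes whose pattern was most like each inhibitor were found by Pearson's r of log2(CPM + 1), taken as deviations from the on-drug mean of the line. For CDKN1A they were MAP3K5 (r = 0.995), PDGFA (0.993) and SLC36A4 (0.993), over 16 libraries and 12813 genes. For CDKN2A they were VIM (0.979), MT2A (0.979) and KIAA1671 (0.970), and for CDKN2B, over the 8 libraries of 451Lu and 13850 genes, NT5E, NUMB and LIF (each 0.999). For CDKN2C they were SCN2A (0.970), SPATA6 (0.969) and STAU2 (0.966), and for CDKN2D C1GALT1 (0.938), STXBP3 (0.936) and SSX2IP (0.933). CDKN1B was most like RP5-991G20.1 (0.960), S100PBP (0.95) and PIK3C2B (0.948), and CDKN1C most like CYSLTR2 (0.909), NBEAP3 (0.908) and PAIP2 (0.890), with CDKN1C at no more than 19 counts per library. These values describe 16 or 8 libraries that share on-drug baselines and 8 groups. With Spearman's rank correlation, SSX2IP alone stayed among the 3 genes nearest to its inhibitor.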

How the data were processed

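The authors deposited raw counts per Ensembl gene for 16 libraries of total RNA. The tools named in the submitters' processing notes are TopHat2 (2.1.0) with Bowtie (1.0.0), and the build is GRCh38. How reads were counted (program, annotation, strand, filters) is not stated in these sources. From these counts, edgeR 4.0.16 (R 4.3.3) was run with TMM scaling, filterByExpr (minimum count 10, minimum total 15), glmQLFit and glmQLFTest. Each line was fitted alone as 4 groups (14449 genes in A375 and 13851 in 451Lu, 4 residual degrees of freedom). The differences between lines came from a joint fit of 8 groups (15481 genes, 8 residual degrees of freedom). P-values were adjusted by Benjamini-Hochberg over all genes of a comparison. SEs were taken from the F statistic, as the size of the log2 change over √F. TMM assumes that rises and falls balance, so changes are relative to the other genes. Exon lengths are unions from GENCODE 29, matched by Ensembl ID, and promoters come from RefSeq. A floor is 3 counts over the 2 libraries of a group, and covers counting error in that group alone. Folds against a floor take the counts of the other group as measured. Counting intervals (95%, exact Clopper-Pearson) cover counting error only.

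The 7 genes and the lists were chosen with earlier results of these data known. Named genes are the 7, a fixed set of cell cycle genes, the called gene with the largest rise and fall of each list at the last time of each line, and the 3 genes nearest to each inhibitor. The listed gene GADD45G was not used here, and 1 other gene list and 1 regulator are not reported here. The scripts were tested on simulated counts. Alternatives were DESeq2 1.42.0, other scalings, no filter, a test against a 1.5-fold change, a replicate block, other sets of groups in the fit, and leaving out each library in turn.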

Additional observations from a re-analysis of the deposited data

Results flagged for a closer look

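The change 24 h off drug differed between the lines, by a test of the difference itself (edgeR's quasi-likelihood test, Benjamini-Hochberg adjusted over 15481 genes), for 4 of the 7 genes. Over all genes 49.4% were called (7642), so the count is near the background. The count ran from 2 to 4 when 1 library was left out (2 without A375 on-drug replicate 2 or 451Lu on-drug replicate 1). In those fits 6712 to 7768 of all genes were called. CDKN1A differed by -4.03, A375 minus 451Lu, with changes of 1.51 in A375 and 5.61 in 451Lu. CDKN2C differed by -1.09, with changes of -1.35 in A375 and -0.20 in 451Lu. CDKN2D differed by -0.63, with changes of 0.69 in A375 and 1.38 in 451Lu, and CDKN1C by 4.75, from 22 counts at 24 h and 0 on drug in A375 and 10 counts at 24 h and 4 on drug in 451Lu. Line, drugs and on-drug level differ together between the lines and cannot be told apart.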

How the results depend on the processing

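Values of the 7 genes under other settings numbered 1420, over 79 results, and a further 7 could not be given. Of the 1420, 1355 kept their side of the threshold, 45 lost and 18 gained a call, and 2 reversed. A change of sign was counted as reversed only where at least 1 of the 2 fits passed. The 1355 therefore include small values that changed sign with no call, such as CDKN1B in 451Lu at 24 h (0.081, down to -0.015). The reversed values were the on-drug difference of CDKN2C, 0.201 with library totals and 0.205 with upper-quartile scaling, where the medians of all genes were 0.18 and 0.19; the cause was not tested beyond that shift. The share of calls that were higher ran from 47.4% to 55.5% in the fits reported, from 30.6% to 60.7% with library totals and from 36.2% to 59.2% with upper-quartile scaling.

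A test against a 1.5-fold change, stricter by construction, called 4566 genes at 6 h, 4257 at 24 h and 4525 at 48 h in A375, and 2373 at 24 h, 4387 at 72 h and 5688 at 120 h in 451Lu, each against on drug. It called 4081 for 24 h against 6 h (3 of the inhibitors) and 215 for 48 h against 24 h (0) in A375, 1768 for 72 h against 24 h (2) and 550 for 120 h against 72 h (1) in 451Lu, 2722 for the line difference at 24 h (2) and 7054 between lines on drug. DESeq2 called 2427 genes and 0 inhibitors for 48 h against 24 h in A375, where edgeR called 4318 and 1.

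Leaving out 1 library at a time gave 0 to 1 inhibitors called for 48 h against 24 h in A375 (0 without 24 h replicate 2 or 48 h replicate 1). It gave 3 to 5 for 72 h against 24 h in 451Lu (3 without 24 h replicate 1 or 72 h replicate 2). For the line difference at 24 h it gave 2 to 4 (2 without A375 on-drug replicate 2 or 451Lu on-drug replicate 1). Over all genes, these fits called 2983 to 4068 for 48 h against 24 h in A375 (4318 with all libraries). They called 5837 to 7299 for 72 h against 24 h in 451Lu (7126 with all libraries). For the line difference they called 6712 to 7768 (7642 with all libraries). The number of genes called thus moved too, and the inhibitor counts are not read as particular to the family. For 120 h against 72 h in 451Lu 2851 to 4510 genes were called (2851 without 72 h replicate 2).

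As far as the labels say, the samples of a line share only a letter across times, B or C. These letters are numbered here as replicates 1 and 2. Same-numbered deviations correlated at -0.081 to 0.024 over the 6 pairs of groups in A375, at -0.019 to -0.0086 between 451Lu on drug and its off-drug groups, and at 0.140 to 0.185 among the 3 off-drug groups of 451Lu. With a replicate block, 10473, 10340 and 10373 genes were called in A375 and 7840, 9632 and 10435 in 451Lu at the 3 times against on drug, 5041 for 120 h against 72 h in 451Lu (4531 without the block), and 1 call of an inhibitor changed among these comparisons, CDKN2C in 451Lu at 24 h (adjusted p = 0.0315). The depth limits CDKN1C, with at most 19 counts per library, and CDKN2B in A375.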
